A study of Homo sapiens with 12 samples.

Results

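The 6 genes described here are PARP9, PARP10, PARP12, PARP14, DTX3L and ZC3HAV1, which are linked to the interferon response and to ADP-ribosylation. They were taken by gene name from the deposited gene tables, where each of the 6 names has 1 row among 60106 genes, and the set was proposed with earlier results of these data known. The series holds 12 RNA-seq libraries in 4 groups of 3 replicates, from PC3 and VCaP, 2 lines of human prostate cancer cells. In each line a non-targeting siRNA (NSI) was compared with an siRNA against FOXA1 (siFOXA1), a forkhead transcription factor that opens chromatin in luminal prostate cells, and RNA was taken after 72 hours. PC3 cells grew in RPMI-1640 and received 20 nM siRNA, and their libraries were made with a stranded mRNA kit. VCaP cells grew in DMEM and received 40 nM siRNA, and their libraries were made with a total RNA kit, so that line, dose, medium and kit cannot be told apart. All 4 groups went through transfection with RNAiMax, and no untransfected group was analysed here. Which siRNA sequences were used, and whether 1 or several, is not given in the sources used here. Nothing in the labels says that replicates were separate cultures, so p-values measure the spread between these samples, which may be technical.

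PARP proteins transfer ADP-ribose from NAD+ to proteins or nucleic acids. The members studied here, apart from DTX3L, belong to the branch that attaches single ADP-ribose units or has lost the activity, and interferon raises the expression of many of its genes through transcription factors that bind the interferon-stimulated response element (ISRE). DTX3L is a ubiquitin ligase that works in a complex with PARP9, and ZC3HAV1 encodes ZAP, an inactive PARP that binds CpG-rich viral RNA and brings RNA decay enzymes to it.

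On GRCh37, 3 of the members lie close together on chromosome 3. PARP9 (ENSG00000138496.16_2) spans chr3:122246771-122283424 on the minus strand and DTX3L (ENSG00000163840.9_2) spans chr3:122283085-122294050 on the plus strand. The genes are head to head and their spans share 340 bases, with 217 exonic bases on opposite strands. These bases are 2.77% of the PARP9 exons and 3.70% of the DTX3L exons, and the PC3 counting ignored strand, so fragments from them could not be assigned to 1 of the genes in PC3. PARP14 (ENSG00000173193.13_3) spans chr3:122399465-122449687, with PARP15 lying between DTX3L and PARP14. ZC3HAV1 (ENSG00000105939.12_3, chr7:138728266-138794465) and PARP12 (ENSG00000059378.12_2, chr7:139723544-139763521) are both on the minus strand of chromosome 7, with 5′ ends 969056 bases apart. PARP10 (ENSG00000178685.13_4) is on the minus strand of chromosome 8. Apart from PARP9 and DTX3L, no member shared exonic bases with another gene of the annotation.

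Promoter stretches are shown because the members moved together in PC3. RefSeq promoter windows of 300 bases, credited to GRCh38.p14, were matched for 5 of the 6 members and gave 6 windows, each found exactly 1 time on GRCh37. The ISRE core searched was GAAA, any 2 bases and GAAA again, on both strands, and 4 of the 6 windows held it, 1 each of DTX3L, PARP9, PARP14 and PARP12, against 3.57% of 35116 windows in all. The other PARP9 window and that of ZC3HAV1 did not hold it. A longer form, in which CT follows, contains the core and was held by 2 of the 6 windows, those of PARP9 and DTX3L, against 0.273% of windows. Their match is the same DNA, within chr3:122283171-122283198, read from the 2 strands, so the 4 windows hold 3 distinct sites. This stretch is printed 5′ to 3′ on the strand of each gene, with the matched letters in capitals. Coordinates here and below are those of the printed stretches, which add 8 bases on each side of a match.

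DTX3L: agggaagcGAAACTGAAACTttgcgccc

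PARP9: gggcgcaaAGTTTCAGTTTCgcttccct

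PARP14 held the core within chr3:122399649-122399674 on the plus strand. PARP12 held it, on the strand opposite to its transcription, within chr7:139762744-139762769, printed on the minus strand.

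PARP14: caggaaacGAAAGCGAAAgagtcaaa

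PARP12: ggggccgcTTTCGGTTTCgtttcccg

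ZC3HAV1 had no ISRE core in its window. It held the core of the gamma-activated site (GAS), TTCNNNGAA, searched on both strands and present in 7.66% of all windows, within chr7:138794554-138794578 on the minus strand. PARP14 also held this core, within chr3:122399638-122399662 on the plus strand, beside its ISRE core.

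ZC3HAV1: tctgctctTTCCGGGAAtgggtggg

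PARP14: tgggagttTTCCAGGAAacgaaagc

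The forkhead motif TGTTTAC, searched on both strands, was in none of the member windows and in 3.42% of all windows. At so low a share, none is the likely outcome for 6 windows, so its absence is not a result about the members. DNA outside the windows was not searched. The matches printed above describe letters in the windows and do not show binding.

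The libraries held 123140099 to 188226483 counts in PC3 and 48187047 to 59839211 in VCaP. FOXA1 fell to 62.3% of its NSI level in PC3 and to 16.5% in VCaP, so the knockdown was weaker in PC3. Among 7 luminal prostate and VCaP markers, which include KLK3 and ERG, 5 were under 1 CPM (counts scaled to library size, here with TMM factors) in both PC3 groups and none in VCaP. The summed level of 8 immune cell markers ran from 0.663 to 0.841 CPM in PC3 NSI, from 1.35 to 1.42 in PC3 siFOXA1, from 0.938 to 1.31 in VCaP NSI and from 2.52 to 3.45 in VCaP siFOXA1, with the T cell marker CD3D at 0 in 3 of these groups. Of 6 stromal and endothelial markers, 5 were found. Under 1 CPM were 3 of these in each PC3 group, 1 in VCaP NSI and 2 in VCaP siFOXA1, so few genes carry their sum. The sum went the opposite way in the 2 lines. In PC3 it was 23.1 to 27.2 CPM in NSI and 39.9 to 44.6 in siFOXA1. In VCaP it was 15.2 to 23.7 and 2.95 to 7.36. Since these are cell lines, the sum is not a measure of stromal content. The 7 luminal markers summed to 357 to 371 CPM in NSI and 262 to 286 in siFOXA1 in PC3, and to 5795 to 6014 and 4067 to 4803 in VCaP. The 4 epithelial markers summed to 410 to 507 and 374 to 420 CPM in PC3, and to 732 to 774 and 715 to 774 in VCaP. Their part in the results on the members was not tested, and in bulk RNA fewer cells of a type and less RNA per cell cannot be told apart.

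All 6 members were higher with siFOXA1 than with NSI in PC3, and in VCaP none passed the test upward. In PC3 the increase ran from 2.66-fold for ZC3HAV1 to 6.25-fold for PARP10. By edgeR's quasi-likelihood test with Benjamini-Hochberg adjustment over all genes, 6 of 6 passed an adjusted p of 0.05 in PC3, where 27.7% of 26478 genes passed and 13.9% passed upward. The median log2 fold change was 1.89 over the members and -0.01 over all genes tested. In VCaP, 3 of 6 passed, all downward, where 45.8% of 22939 genes passed and 23.3% passed downward. The upward count of 0 in VCaP was also 0 with DESeq2, and at an unadjusted p under 0.05 in edgeR 1 member was higher and 4 were lower. The member median there was -0.19, beside 0.02 over all genes.

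**Figure D1:**
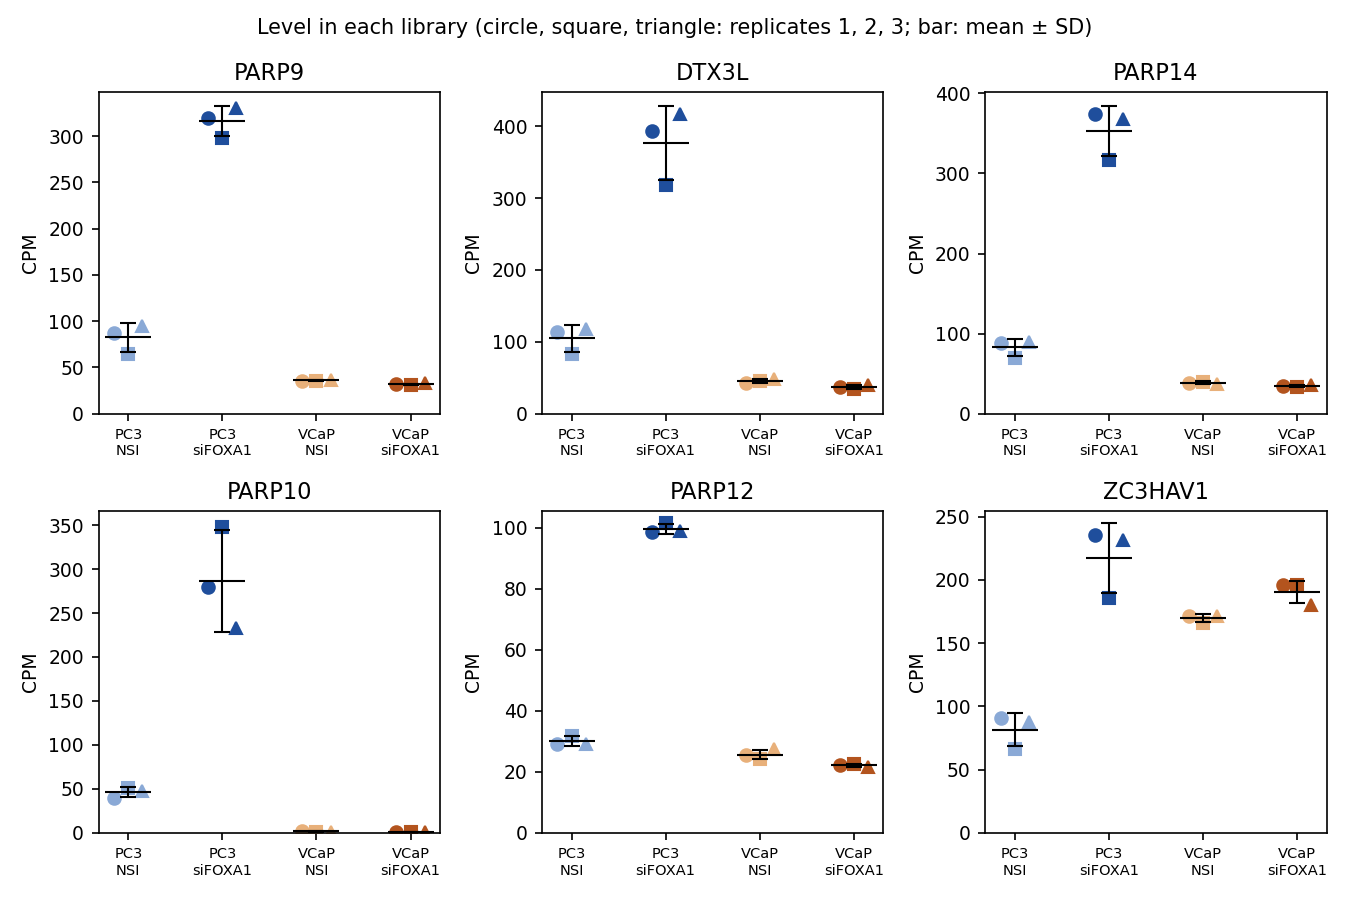
Level of each member in CPM (vertical axis, linear from 0) in the 12 libraries, by line and siRNA; circles, squares and triangles are replicates 1, 2 and 3, and bars are the mean ± SD of 3. The PC3 siFOXA1 libraries stand above the PC3 NSI libraries in all 6 panels, and PARP10 is between 1.15 and 1.68 CPM in VCaP.

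PARP9 and DTX3L, the partners of that complex, moved side by side. PARP9 was 87.6, 64.5 and 94.9 CPM in PC3 NSI replicates 1 to 3 and 320, 298 and 331 CPM with siFOXA1. The groups were far apart, and replicate 2 was the lowest library in each. The PARP9 log2 fold change was 1.94 (SE 0.14, adjusted p = 4.54e-05, edgeR). DTX3L was 113, 82.6 and 118 CPM in PC3 NSI and 394, 319 and 417 CPM with siFOXA1. Its groups did not overlap either, and its log2 fold change was 1.85 (SE 0.16, adjusted p = 9.95e-05, edgeR). In VCaP, PARP9 was 35.0, 35.5 and 36.8 CPM with NSI and 31.5, 31.3 and 32.5 CPM with siFOXA1. This was a small shift with no overlap, and PARP9 fell by 0.17 on the log2 scale (SE 0.05, adjusted p = 0.0269, edgeR). DTX3L was 43.0, 44.9 and 47.9 CPM in VCaP NSI and 36.3, 33.8 and 39.3 CPM with siFOXA1. DTX3L fell by 0.31 on the log2 scale (SE 0.07, adjusted p = 0.00559, edgeR), the largest decrease among the members that passed in VCaP. PARP9 did not pass there without NSI replicate 3 (adjusted p = 0.0638, edgeR), siFOXA1 replicate 1 (0.0762) or siFOXA1 replicate 2 (0.113), and DTX3L passed with any library left out.

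The counts of PARP9 divided by those of DTX3L gave 0.773, 0.780 and 0.805 in PC3 NSI and 0.812, 0.936 and 0.793 in PC3 siFOXA1. The means were 0.786 ± 0.0166 and 0.847 ± 0.0779 (SD, n = 3), and the groups overlapped. The log2 difference of 0.10 had p = 0.2 in a two-sided exact permutation test. In VCaP the ratio was 0.812, 0.790 and 0.768 with NSI and 0.869, 0.926 and 0.827 with siFOXA1, with means of 0.790 ± 0.0223 and 0.874 ± 0.0497 (SD, n = 3). These groups did not overlap. The log2 difference of 0.14 had an exact permutation p of 0.1, the smallest that 20 arrangements allow, and adjusting over the 2 lines gave 0.2 for each. The ratio in NSI was close in the 2 lines although the level of both genes was about 2.3 times higher in PC3 (PARP9 2.30 and DTX3L 2.31).

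**Figure D2:**
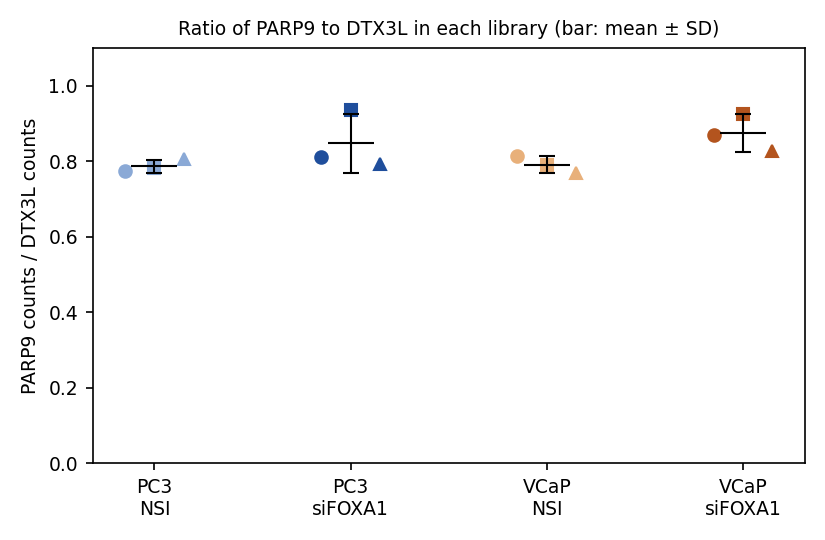
PARP9 counts divided by DTX3L counts in each library (vertical axis, from 0), by line and siRNA, with the mean ± SD of 3 replicates. The 12 ratios lie between 0.768 and 0.936, and replicate 2 is the highest in both siFOXA1 groups.

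PARP14, a mono-ADP-ribosyltransferase with macrodomains that read ADP-ribose, was 88.1, 70.0 and 89.8 CPM in PC3 NSI and 374, 317 and 368 CPM with siFOXA1. Every siFOXA1 library was above every NSI library. Its log2 fold change was 2.10 (SE 0.12, adjusted p = 1.48e-05, edgeR). In VCaP it was 38.8, 39.9 and 36.9 CPM with NSI and 34.3, 33.4 and 36.1 CPM with siFOXA1. The VCaP groups came close without overlap, and the log2 fold change of -0.15 (SE 0.06) did not pass, with an adjusted p of 0.0576 (edgeR). It passed without NSI replicate 3 (adjusted p = 0.038, edgeR) or siFOXA1 replicate 3 (0.0392).

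PARP10, a mono-ADP-ribosyltransferase that carries ubiquitin-interacting motifs, had the largest change of the members in PC3. It was 39.5, 50.4 and 47.9 CPM with NSI and 279, 348 and 233 CPM with siFOXA1. All 3 siFOXA1 libraries were well above NSI, with replicate 2 highest in each group. The log2 fold change was 2.64 (SE 0.16, adjusted p = 1.76e-05, edgeR), and 1.00% of the genes tested had a higher one. In VCaP, PARP10 was scarce, with 87, 69 and 76 counts in NSI and 65, 58 and 64 counts in siFOXA1. Its log2 fold change of -0.25 had an SE of 0.15, wider than that of any other member, and an adjusted p of 0.211 (edgeR). In NSI libraries its CPM was 31.5 times higher in PC3 than in VCaP.

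PARP12, whose protein carries CCCH zinc fingers and acts against RNA viruses, was 29.2, 31.9 and 29.2 CPM in PC3 NSI and 98.6, 101 and 98.9 CPM with siFOXA1. These were the tightest groups of any member in PC3, with an SD of 1.58% of the mean in siFOXA1. The log2 fold change was 1.73 (SE 0.08, adjusted p = 4.45e-06, edgeR). In VCaP it was 25.4, 24.3 and 27.3 CPM with NSI and 22.3, 22.6 and 21.4 CPM with siFOXA1. PARP12 fell by 0.22 on the log2 scale there (SE 0.07, adjusted p = 0.0235, edgeR). It did not pass without NSI replicate 3 (adjusted p = 0.0631, edgeR) or without siFOXA1 replicate 1, 2 or 3 (0.0505, 0.0602 and 0.0618).

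ZC3HAV1 differed from the other members in its resting level. It was 91.0, 66.4 and 87.4 CPM in PC3 NSI and 236, 185 and 231 CPM in PC3 siFOXA1. Its log2 fold change of 1.41 was the smallest of the 6 in PC3 (SE 0.14, adjusted p = 0.000283, edgeR), and 4.19% of genes had a higher one. In VCaP it was 172, 166 and 172 CPM with NSI and 196, 196 and 180 CPM with siFOXA1. It was the only member whose VCaP value was above 0, at a log2 fold change of 0.17 (SE 0.06), and it did not pass, with an adjusted p of 0.0554 (edgeR). It passed upward without siFOXA1 replicate 3 (adjusted p = 0.0316, edgeR) and with upper-quartile scaling (0.0184). The NSI level was 2.08 times higher in VCaP than in PC3, the reverse of the other 5 members, which were 1.17 to 31.5 times higher in PC3. With siFOXA1 the PC3 and VCaP libraries overlapped in ZC3HAV1. These ratios between lines are descriptions, since line and kit cannot be told apart.

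The change itself differed between the lines for every member. In the fit over 12 libraries, the VCaP log2 fold change minus that in PC3 was -2.91 (SE 0.23) for PARP10, -2.27 (SE 0.15) for PARP14, -2.18 (SE 0.19) for DTX3L, -2.13 (SE 0.16) for PARP9, -1.96 (SE 0.11) for PARP12 and -1.26 (SE 0.17) for ZC3HAV1. All 6 passed, with adjusted p from 1.25e-08 to 6.81e-05 by edgeR, where 22.1% of 30450 genes passed and 11.1% passed downward. No member passed upward in VCaP, where the FOXA1 knockdown was deeper. The part of knockdown depth was not tested, and line, siRNA dose, medium and kit cannot be told apart in these differences.

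**Figure D3:**
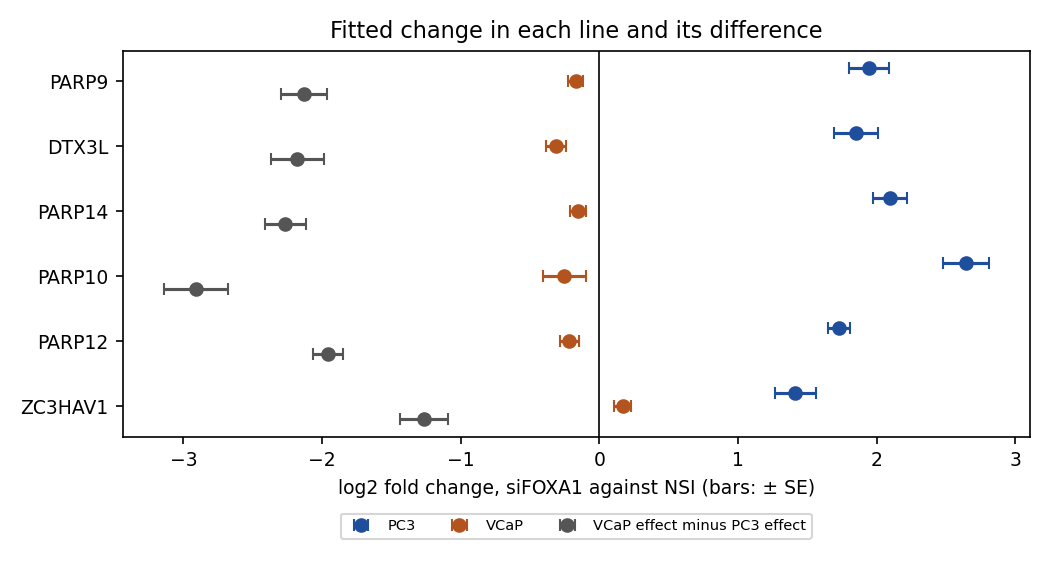
Log2 fold change of siFOXA1 against NSI in PC3 (blue) and VCaP (orange), and the VCaP change minus the PC3 change (grey), with bars of ± SE. PC3 values run from 1.41 to 2.64, VCaP values from -0.31 to 0.17, and the differences from -2.91 to -1.26.

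In both lines all 6 members had groups without overlap. The share of tested genes without overlap was 45.1% in PC3 (22.4% higher and 22.7% lower) and 55.9% in VCaP (27.9% higher and 28% lower). In VCaP the separation was small in size, and the calls there were less firm than in PC3: with siFOXA1 replicate 1 or replicate 2 left out, 1 of 6 members passed, and with the spread shared over all 12 libraries 0 did, by edgeR (1 at an unadjusted p under 0.05, and 2 with DESeq2 on VCaP alone). Summed over the members, the level was 427 ± 54.0 CPM in PC3 NSI and 1650 ± 70.4 in PC3 siFOXA1, and 316 ± 5.08 and 317 ± 5.35 CPM in VCaP (SD, n = 3). The equal VCaP sums hold a shift in make-up, since ZC3HAV1 was 53.7% of the sum with NSI and 60.2% with siFOXA1. In PC3, PARP10 went from 10.8% of the sum to 17.4% and ZC3HAV1 from 19.1% to 13.2%.

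Levels were also scaled per kilobase of annotated exon, to set genes side by side. This length joins the exons of all annotated transcripts of a gene, so the order of genes is a rough description. DTX3L was highest in PC3 NSI at 17.8 CPM per kb and PARP12 lowest at 7.92. The libraries of PARP10, PARP9, PARP14, ZC3HAV1 and PARP12, next to each other in that order, overlapped. In PC3 siFOXA1, PARP10 led at 78.9 CPM per kb and overlapped with DTX3L at 64.2, and these were followed by PARP14 at 44.6, PARP9 at 40.4, ZC3HAV1 at 26.4 and PARP12 at 26.3. In VCaP NSI, ZC3HAV1 was 20.6 CPM per kb, above DTX3L at 7.71 with no overlap, and PARP10 was last at 0.401.

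The members split into 2 sets within the PC3 replicates. In replicate 2 of both PC3 groups, PARP9, DTX3L, PARP14 and ZC3HAV1 were at their lowest, at 78.3% to 84.7% of the group mean in NSI and 84.7% to 94.4% in siFOXA1. PARP10 and PARP12 were at their highest in the same libraries, at 110% and 106% of the mean in NSI and 121% and 102% in siFOXA1. The exons of the first 4 genes have a GC content of 43.5% to 44.4%, PARP12 has 54.5%, and PARP10 has 66.7%, which is higher than in 98.6% of the genes compared. Over all genes in PC3 with at least 5 CPM, cut into 5 equal classes by exon GC, the median log2 deviation of replicate 2 from its group mean went from -0.12 in the lowest class to 0.15 in the highest in NSI, and from -0.08 to 0.15 in siFOXA1. Replicate 2 had the fewest counts of either PC3 group. The part of GC content in the members' spread was not tested. Between the groups, the median log2 fold change in PC3 stayed between -0.14 and -0.08 in all 5 classes. Taking away the median of its own class left PARP10 at 2.78 and PARP9 at 2.03.

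**Figure D4:**
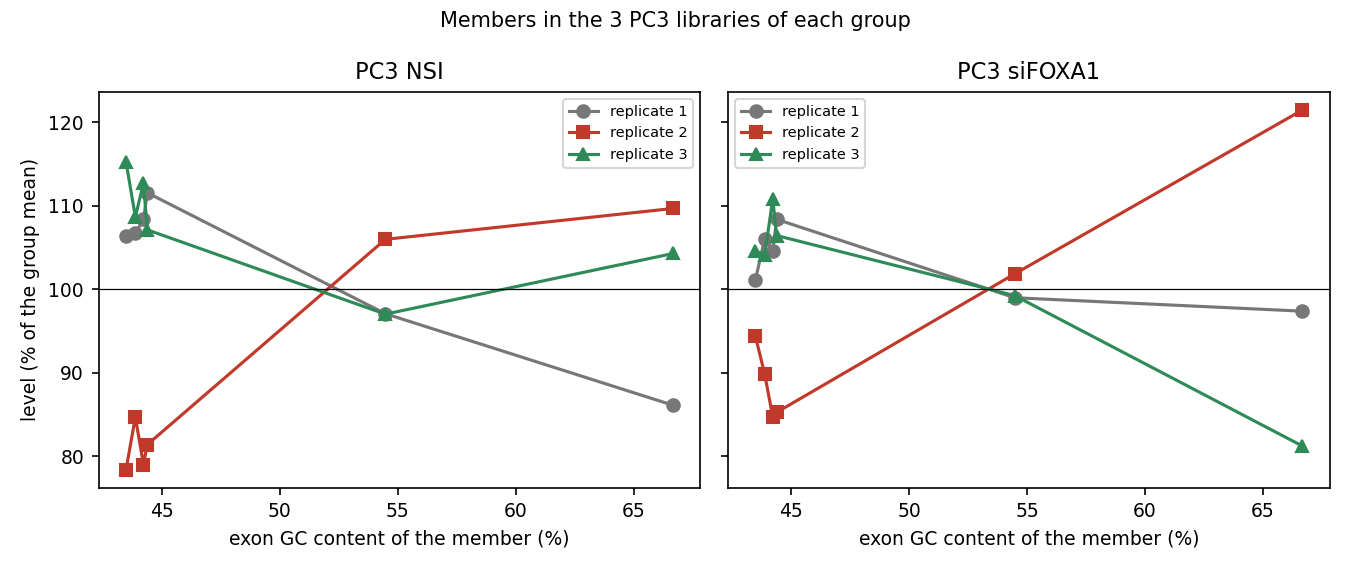
Level of each member as a percent of its group mean (vertical axis) against the GC content of its exons in percent (horizontal axis), for the 3 PC3 NSI and 3 PC3 siFOXA1 libraries. Replicate 2 (red squares) is below 100% for the 4 members at 43.5% to 44.4% GC and above 100% for PARP12 and PARP10 in both groups.

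Genes whose level followed that of a member were sought by Pearson's r of log2 CPM, centred within each line, over 12 libraries and 9876 genes. The closest reported for PARP9 was OAS3 (r = 0.998), those for PARP14 were DDX58 (0.997) and OAS3 (0.996), and those for DTX3L were OAS3 (0.994) and CMTR1 (0.987). PARP10 was closest to HLA-C (0.990) and IRF7 (0.986), and PARP12 to APOL2 (0.996) and GMPR (0.996). ZC3HAV1 had other neighbours, TRIM56 (0.994) and ZCCHC2 (0.993), whose VCaP log2 fold changes of 0.17 and 0.14 were above 0 as its own was. For these genes 96.8% to 99.7% of the variation lay within PC3, so the values describe mostly 1 contrast in 6 libraries.

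For the counts of this list and those below, 13.9% of all genes tested in PC3 passed in each direction. In VCaP 22.5% passed upward and 23.3% downward. Of the 12 other ADP-ribosyltransferase genes, 11 were tested in PC3, where 4 rose and 0 fell, with a median log2 fold change of 0.08. PARP15, the neighbour of PARP14, had 0, 3 and 12 counts in PC3 NSI and 57, 58 and 56 with siFOXA1. It had 0 to 6 counts in the VCaP libraries, which were smaller. Its fitted log2 fold change in PC3 was 3.55 (SE 0.63, adjusted p = 0.00428, edgeR), above that of any member, and rests on few NSI counts. PARP3, which acts in DNA repair, rose by 0.59 on the log2 scale (SE 0.08), PARP11 by 0.54 (SE 0.15) and PARP4 by 0.39 (SE 0.12). In VCaP 4 of 11 rose and 2 fell, with a median of 0.03, and the values named here were larger in size than the largest of a member there. There PARP4 rose by 0.73 (SE 0.05) and PARP8 by 0.68 (SE 0.08), PARP2 fell by 0.57 (SE 0.08) and TNKS2 by 0.45 (SE 0.06). PARP6 also passed upward in VCaP, at 5 to 23 counts a library, with a fitted log2 fold change of 1.72 (SE 0.28). In PC3, PARP4 and PARP11 did not pass without NSI replicate 3 (adjusted p = 0.0772 and 0.081, edgeR), siFOXA1 replicate 1 (0.095 and 0.0956) or siFOXA1 replicate 3 (0.118 and 0.0872).

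Few genes for enzymes that remove ADP-ribose or supply NAD+ passed in PC3. Among 6 ADP-ribose hydrolases, 1 rose in each line and 0 fell, and it was ADPRH, with log2 fold changes of 0.47 (SE 0.12) in PC3 and 0.29 (SE 0.09) in VCaP. The median log2 fold changes in PC3 and VCaP were 0.11 and 0.06 over the hydrolases, 0.26 and 0.16 over the NAD genes and -0.02 and -0.28 over the Deltex relatives, beside -0.01 and 0.02 over all genes. Among genes of NAD supply and use, 2 of 10 rose in PC3 and 0 fell, namely SARM1 (0.38, SE 0.12) and NADSYN1 (0.33, SE 0.10), while 3 of 8 rose and 3 fell in VCaP. At an unadjusted p under 0.05 in edgeR, 4 of them were higher in PC3 and 0 lower. QPRT, which makes NAD+ precursor from quinolinate, rose by 3.31 in VCaP (SE 0.21), from 17 to 29 counts a library to 181 to 234. NMNAT2, NAPRT and NAMPT fell in VCaP by 0.54, 0.47 and 0.21 on the log2 scale, and NMNAT1 rose by 0.33. Of the 4 relatives of DTX3L in the Deltex family, 0 passed in PC3 by edgeR (2 at an unadjusted p under 0.05), and 1, DTX4, by DESeq2. DTX4 passed there in 5 of 13 alternatives, among them edgeR with library size alone (adjusted p = 0.0442) and with all 12 libraries in 1 fit (0.0153). In VCaP DTX4 rose by 0.91 (SE 0.12) while DTX1 fell by 0.79 (SE 0.21) and DTX3 by 0.27 (SE 0.08). With 1 library left out in turn, the highest adjusted p by edgeR was 0.0798 in PC3 and 0.114 in VCaP for ADPRH, 0.125 for SARM1 and 0.136 for NADSYN1 in PC3, and in VCaP 0.107 for NMNAT1, 0.125 for NAPRT, 0.0817 for NAMPT, 0.051 for DTX1 and 0.0659 for DTX3, so each of these calls was lost without at least 1 library.

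ZAP works with TRIM25, a ubiquitin ligase, and KHNYN, an endonuclease, and neither passed in PC3, at log2 fold changes of 0.01 (SE 0.12) and 0.12 (SE 0.08). TRIM25 fell by 0.36 in VCaP (SE 0.06) and KHNYN was at 0.10 there (SE 0.06, adjusted p = 0.174, edgeR). Of the 18 genes in the list of ZAP partners and RNA decay, 2 rose and 6 fell in PC3 (median -0.15), and 2 rose and 8 fell in VCaP (median -0.19). The 2 that rose in PC3 were XRN1, the cytoplasmic 5′ to 3′ exonuclease (1.49, SE 0.19), and N4BP1, an endonuclease related to KHNYN (0.51, SE 0.11). In VCaP, XRN1 fell by 0.24 (SE 0.06) and N4BP1 by 0.26 (SE 0.05), and with the spread shared over all 12 libraries neither passed (adjusted p = 0.349 and 0.0918, edgeR) and 4 of the list fell rather than 8. Among the genes of the exosome, the 3′ to 5′ RNA-degrading complex, EXOSC5, EXOSC4 and EXOSC3 fell in PC3 by 0.77, 0.69 and 0.55, and EXOSC9 fell by 0.51 in VCaP, as did the helicase DHX30 by 0.50, while EXOSC7 and EXOSC6 rose there by 0.29 and 0.24. EXOSC7 and EXOSC6 fell in PC3 by 0.50 and 0.36, and EXOSC4 and EXOSC5 fell in VCaP too, by 0.35 and 0.30. In PC3, EXOSC4 did not pass without NSI replicate 2 or 3 or siFOXA1 replicate 1 or 3 (adjusted p from 0.0697 to 0.15, edgeR), and EXOSC3 did not without siFOXA1 replicate 1 (0.0698). EXOSC7 and EXOSC6 passed in 8 and 5 of 13 alternatives in PC3. In VCaP, EXOSC4 and EXOSC5 passed in 12 and 6 of 13.

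Genes of interferon signalling rose beside the members in PC3. Of 19 tested, 11 rose and 2 fell, where 13.9% of all genes passed in each direction. The median log2 fold change of the list was 0.87. STAT2 went from 63.7, 45.8 and 66.0 CPM to 326, 296 and 340 CPM (log2 fold change 2.45, SE 0.15), and IRF9 rose by 1.18 (SE 0.11). Interferon beta (IFNB1) had 0, 2 and 0 counts in PC3 NSI and 15, 13 and 21 with siFOXA1, and interferon lambda 1 (IFNL1) had 4, 0 and 1 and then 53, 49 and 61 counts. Both passed, with adjusted p of 0.0048 and 0.000581 by edgeR. Neither had more than 1 count in any of the VCaP libraries, which were smaller. The feedback inhibitor SOCS1 rose by 3.27 (SE 0.24), and the interferon gamma receptor genes IFNGR2 and IFNGR1 fell by 0.59 and 0.36. IFNGR1 did not pass without NSI replicate 1 or 3 or siFOXA1 replicate 1 or 3 (adjusted p from 0.0552 to 0.0735, edgeR).

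In VCaP, 8 of 16 interferon signalling genes rose and 5 fell, with a median of 0.16. Over all genes tested there, 22.5% passed upward and 23.3% downward. STAT2 was at a log2 fold change of -0.02 (SE 0.09) and did not pass. IRF9 rose by 0.63 (SE 0.16) at only 85 to 161 counts a library. Its mean in NSI and siFOXA1 was 1.87 and 2.88 CPM in VCaP, against 42.4 and 95.8 CPM in PC3. SOCS1 rose by 1.56 (SE 0.38) at few counts, 12, 17 and 9 with NSI and 24, 30 and 55 with siFOXA1. IFNGR1 rose by 0.95 (SE 0.06). USP18, the protease that removes ISG15 and dampens the receptor, fell by 0.94 (SE 0.10), IRF1 by 0.44 (SE 0.11) and the kinase TYK2 by 0.36 (SE 0.09).

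**Figure D5:**
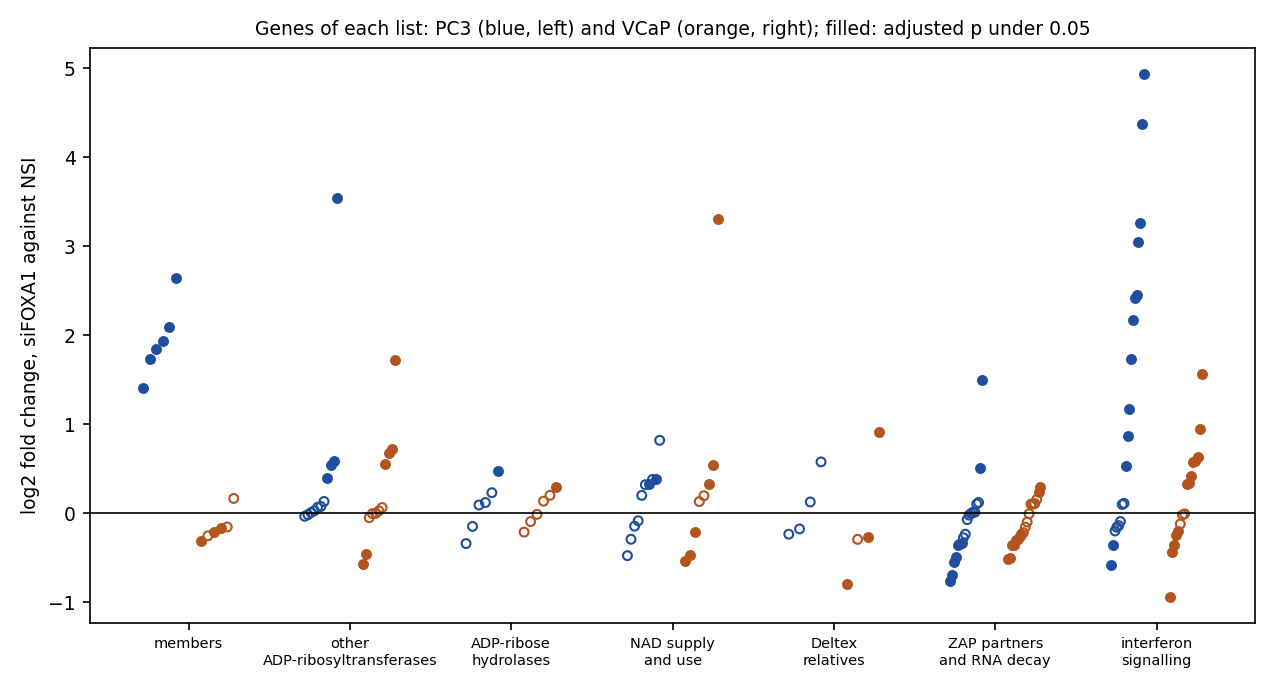
Log2 fold change of siFOXA1 against NSI for each tested gene of the 7 lists (horizontal axis), PC3 in blue at left and VCaP in orange at right; filled points passed an adjusted p of 0.05 by edgeR. In PC3 the 6 members and 11 of 19 interferon signalling genes lie above 0 as filled points, and in VCaP the members lie between -0.31 and 0.17.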

How the data were processed

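Counts from 12 RNA-seq libraries (60106 genes each) were used. The authors' values are expected counts from featureCounts 2.0.0, per the file headers, on the GENCODE 28lift37 basic annotation of GRCh37, counting fragments with both ends mapped and dividing those with several places or genes. PC3 counting ignored strand and VCaP counting was reverse-stranded, per the file headers. The submitters' processing notes also list STAR 2.7.3a.

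Counts were rounded, filtered with filterByExpr, scaled by TMM and tested with edgeR 4.0.16 (R 4.3.3), each line alone and both lines for the difference, at an adjusted p of 0.05 over all genes. Base-2 logarithms of CPM used a prior count of 1. The SE is the log2 fold change divided by the square root of F. The steps were tested on simulated data. Alternatives used DESeq2 1.42.0, other scalings, no filter, a replicate block and left-out libraries.

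Members and lists were chosen with earlier results of these data known. Named genes are the members, FOXA1, up to 3 rises and 3 falls per list and line, 6 fixed genes, and up to 2 genes like each member; 1 of these genes is not reported here. The motifs, the GC comparison and the counts of groups without overlap were added after the data were examined.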

Additional observations from a re-analysis of the deposited data

Results flagged for a closer look

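The change with siFOXA1 differed between the 2 lines, by edgeR's test of the difference over 12 libraries, for 29 of the named genes. Many named genes were picked by the size of their change within a line, which favours such differences. The count is therefore not a result about them. Over all genes, 22.1% of 30450 passed this test. The log2 fold change in VCaP minus that in PC3 was lower for all 6 members, at PARP10 (-2.91), PARP14 (-2.27), DTX3L (-2.18), PARP9 (-2.13), PARP12 (-1.96) and ZC3HAV1 (-1.26). It was also lower for FOXA1 itself (-1.94), whose knockdown was deeper in VCaP. Among the other named genes it was lower for USP18 (-4.00), IRF1 (-2.87), STAT2 (-2.49), XRN1 (-1.75), SOCS1 (-1.72), NMNAT2 (-0.88), N4BP1 (-0.78), PARP3 (-0.65), PARP2 (-0.60), TNKS2 (-0.60), IRF9 (-0.56), PARP11 (-0.53) and DTX3 (-0.41). It was higher for PARP6 (2.91), QPRT (2.91), IFNGR1 (1.29), IFNGR2 (0.90), EXOSC7 (0.78), PARP8 (0.59), EXOSC6 (0.58), EXOSC5 (0.45) and EXOSC3 (0.44). The value for PARP6 (SE 0.86) rests on 0 to 6 counts a library in PC3, where PARP6 was too scarce to be tested alone. All 6 members passed in each of the 18 alternatives, while the test of the difference no longer passed in 12 of them for EXOSC5, 10 for EXOSC3, 7 each for IRF9 and PARP11, 6 each for TNKS2 and DTX3, 5 for PARP6 and 1 for SOCS1, most of these with 1 library left out. The other genes named in this paragraph passed in all 18. Line, siRNA dose, medium, library kit and strand setting cannot be told apart in these differences.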

How the results depend on the processing

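In PC3, and for the difference between lines, all 6 members passed with the same direction under every alternative run: DESeq2, DESeq2 size factors, upper-quartile factors, library size alone, no filter, the replicate block, all 12 libraries in 1 fit (PC3) and each library left out. In VCaP the number of members that passed was 3, and it was 4 with DESeq2 size factors, 3 with library size alone, 2 with DESeq2, 2 without a filter, 2 with upper-quartile factors (where ZC3HAV1 passed upward), 0 with all 12 libraries in 1 fit, and 1 to 4 with 1 library left out. The value of 1 came without siFOXA1 replicate 1 and without siFOXA1 replicate 2. DTX3L passed in 12 of 13 VCaP alternatives, the exception being the fit of all 12 libraries (adjusted p = 0.138, edgeR). Taking away the median of genes of like GC, chosen after seeing the data, turned no member's direction. No direction could turn, because every class median was smaller in size than every member's change in the same line. The class median furthest from 0 was -0.14 (PC3) or -0.09 (VCaP). The smallest member changes in size were 1.41 for ZC3HAV1 (PC3) and -0.15 for PARP14 (VCaP). The part of GC content in these directions was therefore not tested.

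The replicate block moved the number of PC3 genes that passed from 7344 to 11333 and left the members that passed at 6 in PC3 and 3 in VCaP. Over all genes tested, same-numbered PC3 libraries correlated at 0.135, 0.285 and 0.0869, the last under the limit of 0.1 set for pairing, so the numbers were not taken as pairs. Each PC3 replicate still correlated best with its own number over these genes. The mean correlations with other numbers were -0.051, -0.17 and -0.031. Over genes of at least 5 CPM, a selection made after those values and the block's counts were seen, the correlations were 0.662, 0.721 and 0.303, and replicate 3 did not correlate best with its own number. With 1 PC3 library left out, the number of genes that passed ran from 3963 (without siFOXA1 replicate 1) to 7628, with 4738 without NSI replicate 3; the cause was not tested.

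Directions turned for 10 values of other named genes, none of them past the threshold, and the cause was not tested. In PC3 the log2 fold change with library size alone was 0.0062 for NMNAT1 and 0.016 for EXOSC9, and with 1 library left out it ran from -0.13 to 0.10 for EXOSC9, from -0.80 to 0.22 for DTX1, from -0.055 to 0.12 for PARP2 and from -0.069 to 0.12 for TRIM25. In VCaP, STAT2 was at 0.029 with upper-quartile factors and at 0.0086 with all 12 libraries in 1 fit, and with 1 library left out the range was -0.10 to 0.0496 for STAT2, -0.12 to 0.000496 for PARP3 and -0.047 to 0.067 for PARP11. For the difference between lines NAMPT was at -0.0226 with library size alone, and with 1 library left out NAMPT ran from -0.15 to 0.21 and NAPRT from -0.27 to 0.20. Among the members, counts limit PARP10 in VCaP most.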
